A study of Caenorhabditis elegans with 12 samples.

Results

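The 3 libraries described here are poly(A)-selected RNA of wild-type N2 C. elegans larvae that were given no ascarosides, the pheromones that promote entry into the dauer larva. They are the group without ascarosides in the sample labels, 3 of the 12 samples of the series and 3 of the 6 libraries in the table of N2 counts, and are called control libraries 4, 5 and 6 as the table numbers them. The larvae came from 1 bleach-synchronised liquid culture fed E. coli HB101 at 20 °C, which was divided at 6 h after hatching. These 3 cultures received ethanol alone, the solvent of the ascarosides, and were harvested 3 h later, at 9 h. The cultures therefore share their parents, hatch and first 6 h, and the spread between them covers the 3 h apart, extraction and sequencing.

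The L1 is the first larval stage, in which a worm hatched with nearly all of its embryonic cells feeds, grows and divides a small number of blast cells before its first moult. At this stage muscle, gut, skin and most neurons are already differentiated, the gonad is a small primordium, and sperm, oocytes and yolk are not yet made. Levels are given in transcripts per 1000000 (TPM), that is, reads per gene divided by the exon length of the gene and scaled to the same total in each library, so that genes can be compared with each other. With a single group there was no comparison to test and no p-value is given. Values are means with the SD over the 3 libraries (n = 3) unless they are given per library.

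Between 14237868 and 18915816 reads per library fell on genes. Reads outside genes were 33.1% to 41.8% of each column, mostly reads with more than 1 place in the genome, and rRNA rows, left out here, took 10.2%, 11.5% and 17.3% of the gene reads in libraries 4, 5 and 6. After this 11917127 to 16941306 reads remained, and 1 TPM stood for 12.8 to 16.15 reads in a gene of median length (1173 bases). The libraries correlated with Pearson's r of 0.980 to 0.982 across 12875 genes on the log2(TPM + 1) scale, which describes genes of the same libraries and not independent replicates. Library 4 stood apart from the other 2 in a way that in part followed gene length. This is described with its values towards the end, since it touches single long genes throughout.

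Of 19617 protein-coding genes, 12170 (62.0%) reached 1 TPM in each of the 3 libraries. A further 5975 stayed under 1 TPM in every library, 1472 were on both sides of that level, and 1901 (9.69%) had no read at all. The median of the expressed genes was 15.2 TPM. Above it the distribution was steep, with 7929 genes at a mean of 10 TPM or more, 1240 at 100 or more and 157 at 1000 or more. The 10 highest genes held 6.14% ± 0.393 of all TPM (SD, n = 3), the 100 highest 39.9% ± 2.97 and the 1000 highest 72.5% ± 1.85. The first 186 genes were enough for 50% of the total. Protein-coding genes as a whole held 98.5% ± 0.0974.

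The top of the order belonged to the machinery of protein synthesis. The highest gene in every library was eef-1A.1 (WBGene00001168), which encodes the elongation factor that brings aminoacyl-tRNA to the ribosome, at 9430, 8981 and 8920 TPM in libraries 4, 5 and 6. Its closely similar paralogue eef-1A.2 had a mean of 1870 TPM, so that the first exceeded the second 4.90 ± 0.410 times (SD, n = 3), a ratio that is uncertain because reads shared by both genes were not counted. Listed ribosomal protein genes made up 24 of the 30 highest genes and 74 of the 100 highest. The list was drawn by gene name, so rpl-36.A, a further ribosomal protein gene in the first 30, lay outside it. So would any ribosomal protein gene with a sequence name only, and these counts are lower limits. Together the 80 listed ribosomal protein genes held 30.8% ± 2.81 of all TPM, with a median gene at 4001 TPM. The second highest gene, rps-25 (WBGene00004494), had 5677, 6978 and 8329 TPM and kept the second rank in all 3 libraries. The exception in the list was rpl-42, with 6 reads in all. Within the first 30 genes the order below rank 2 was not resolved. In all, 28 of 29 neighbouring pairs in the order had overlapping ranges, and 20 genes were in the first 30 of each library. The first 100 were steadier, with 93 genes in common.

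**Figure D1:**
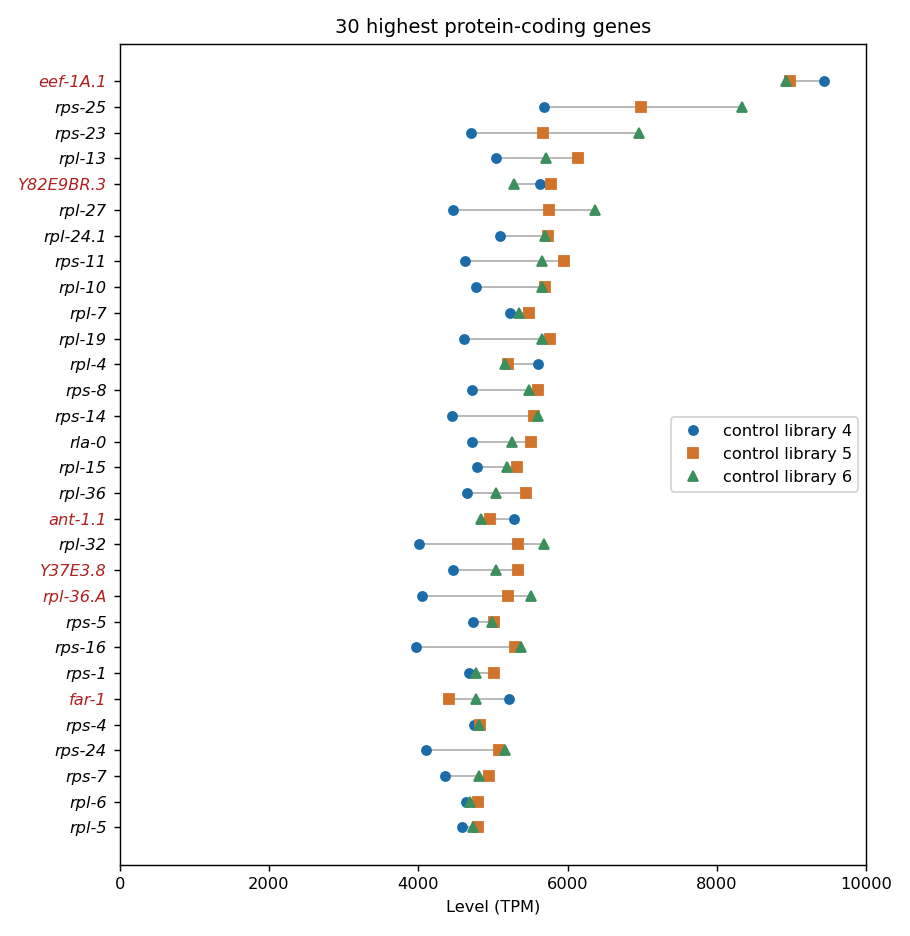
Levels in TPM (horizontal axis, linear from 0) of the 30 protein-coding genes with the highest mean, with 1 point for each control library and a grey line over their range. Names in red are outside the ribosomal protein list. The gene eef-1A.1 stands alone at a mean of 9110 TPM, and library 4 is the lowest for most of the short ribosomal protein genes.

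Other translation genes followed at lower levels. Elongation factor eef-2, which moves the ribosome along the message, had 3012, 2394 and 2456 TPM, and all 42 translation factor genes found were above 1 TPM, with a median of 112 TPM (41 of them at 10 TPM or more). The 65 mitochondrial ribosomal protein genes, which serve the separate ribosomes of the organelle, were all at 1 TPM or more with a much lower median of 66 TPM, and none reached 1000. Proteasome subunits, which degrade tagged proteins, had a median of 119.3 TPM over 33 genes. The lowest of them was rpn-6.2 at 1.297 ± 0.628 TPM.

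List medians for energy metabolism lay below that of the ribosomal protein genes and above those of the translation factors and the proteasome. The 38 nuclear genes of oxidative phosphorylation held 2.92% of TPM with a median of 499 TPM, and every one reached 1 TPM in each library. Its highest member ant-1.1 (WBGene00006439), the carrier that exchanges ADP and ATP across the inner mitochondrial membrane, had 5276, 4955 and 4846 TPM and ranked 18th of the protein-coding genes. All 12 proteins encoded in the mitochondrial genome were measured. Mitochondrial transcripts are cut from long precursors, and how evenly poly(A) selection kept them was not tested. COX1 (WBGene00010964), the catalytic subunit of cytochrome c oxidase, had 3654, 3604 and 5276 TPM, and COX3, another subunit of that enzyme, had 3596, 3790 and 5028. Of all 7929 genes with a mean of 10 TPM or more, 1148 were highest in library 6. Both COX1 and COX3 were highest there, as were 11 of the 12 mitochondrial genes. The same library held the largest share of rRNA reads (17.3%). Whether these values are connected was not tested.

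Glycolysis, the TCA cycle and the glyoxylate cycle, which lets worms turn stored fat into sugar, were expressed almost throughout. Of 22 genes of glycolysis and gluconeogenesis 21 reached 1 TPM in every library, with a median of 206 TPM, and all 19 genes of the TCA and glyoxylate cycles did, with a median of 266 TPM. The highest of the latter was icl-1 (WBGene00001564), which carries both steps of the glyoxylate shunt, at 1653, 698 and 759 TPM. The highest of the former was pck-1 (WBGene00021043), the entry enzyme of gluconeogenesis, at 1232, 514 and 575 TPM. Both genes were highest in library 4 and lowest in library 5, yet their ratio hardly moved, with pck-1 at 0.746 ± 0.0107 times icl-1 (SD, n = 3). The lowest gene of glycolysis was pfk-1.2 at 0.741 ± 0.0943 TPM. Among the lipid binding proteins far-1 (WBGene00001385), a secreted carrier of fatty acids and retinol, reached 5212, 4408 and 4772 TPM, 8.96 ± 0.313 times its relative far-2. The desaturase fat-6 exceeded the closely related fat-7 by 67.2 ± 17 times (mean levels 330 and 5.2 TPM), and both make oleate from stearate. Highest among the fatty acid synthesis genes was fat-2, a desaturase that acts on oleate, at 540 ± 26.4 TPM. The 8 listed genes of ascaroside synthesis, the peroxisomal pathway that shortens the side chains of the pheromones, were all expressed, from dhs-28 at 184 ± 19.4 and daf-22 at 142 ± 23.5 down to acox-1.3 at 3.30 ± 1.17 TPM.

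Protection against stress was uneven among the genes. The constitutive chaperones hsp-1 and hsp-90 had 1873 ± 230 and 1865 ± 210 TPM. Of the 33 chaperone genes found 29 reached 1 TPM in each library. Small heat shock genes were included, with hsp-16.41 at 545, 835 and 534 TPM, and hsp-16.2 at 535, 843 and 529. The symbol hsp-16.1 belongs to a pair of near-identical gene entries, of which WBGene00002017 had 241 ± 61.9 TPM and WBGene00002015 had 1 read, and how reads were divided between them is uncertain. The inducible chaperone gene hsp-70 (WBGene00002026) had 49.8, 27.8 and 13.3 TPM and was 1 of the 15 genes that varied most. Of the antioxidant enzymes the peroxiredoxin prdx-2 was high at 1072 ± 28.2 TPM, and the superoxide dismutase sod-3 had 0.736 ± 0.483 TPM.

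Marker genes of the tissues were ranked by the median of each list. In RNA of whole worms fewer cells of a type and less RNA per cell cannot be told apart, and the order compares different genes, so it ranks transcripts and not tissues. Body wall muscle, which lines the body and drives locomotion, was first with a median of 226 TPM over 21 genes, all of them expressed. Pharyngeal muscle followed with 151 TPM over 9 genes, then the intestine with 88.9 over 21, neurons in general with 40 over 21, the gland and epithelium of the pharynx with 38.8 over 14 and the hypodermis with 32.2 over 15. Seam cells (20.7 TPM), the excretory system (13.5), coelomocytes (8.91), the somatic gonad (8.68) and touch neurons (5.59) were lower. Glia (3.62), cilia of sensory neurons (3.49) and germ cells (2.78) lay below the median of all protein-coding genes, which was 5.2 TPM.

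**Figure D2:**
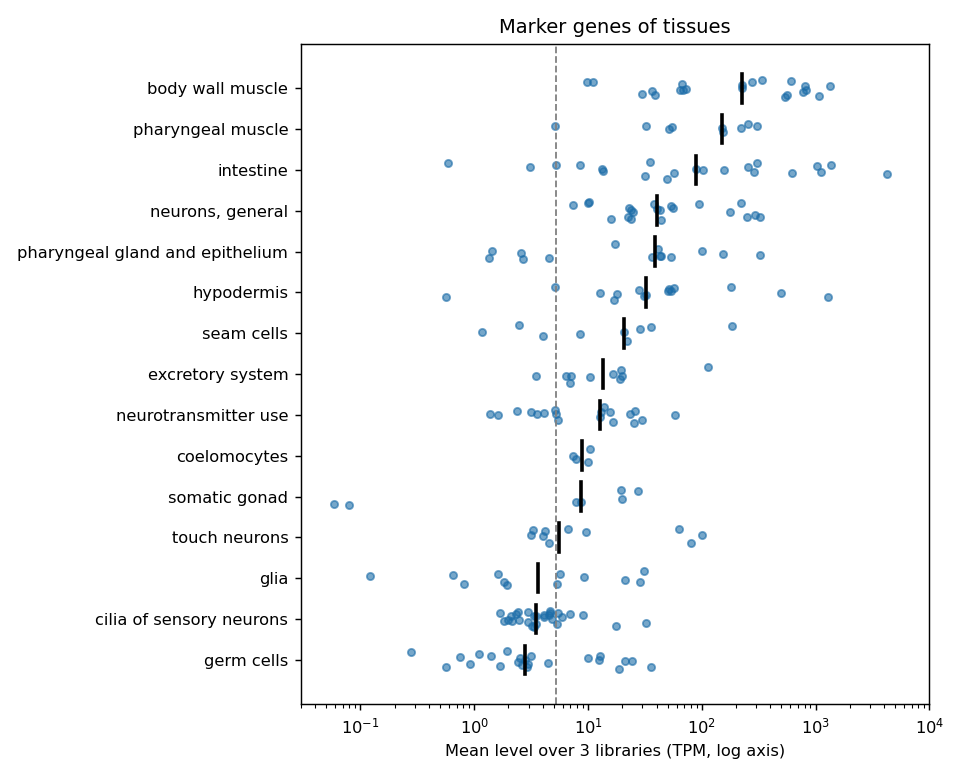
Mean level over 3 libraries in TPM (horizontal log axis) of each marker gene, 1 point per gene, for 15 tissue lists ordered by their medians (black bars). The dashed line is the median of all protein-coding genes at 5.2 TPM, and the lists run from body wall muscle at 226 to germ cells at 2.78.

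In body wall muscle the light chain gene mlc-3 had 1410, 1275 and 1326 TPM and the troponin C gene pat-10 had 1027, 1117 and 1078. The major myosin heavy chain unc-54 (WBGene00006789) had 1119, 572 and 631 TPM, 11.9 ± 0.836 times the minor heavy chain myo-3. The giant protein gene ttn-1 was the lowest of the list at 9.83 ± 1.58 TPM, next to the muscle transcription factor hlh-1 at 11.1 ± 1.17. In the pharynx, the feeding pump, the 2 myosin heavy chains were close, with myo-2 at 222 ± 68.0 and myo-1 at 151 ± 48.4 TPM, and their ratio of 1.47 ± 0.0192 was nearly the same in each library although both levels were not. Transcription factors of the pharynx were lower, with pha-4 at 32.5 ± 11 and ceh-22 at 5.09 ± 0.583 TPM.

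The intestine was represented by its hydrolases. The aspartic protease asp-1 (WBGene00000214) had 4207, 4508 and 3941 TPM, 3.28 ± 0.0843 times its relative asp-6. The saposin-like antimicrobial gene spp-5 followed with 1136, 1488 and 1463 TPM, and the microvillar actin act-5 with 1048, 1279 and 1002. All 3 were highest in library 5, as were 1935 of all 7929 genes with a mean of 10 TPM or more. The GATA factor elt-2 (WBGene00001250), the main regulator of gut genes, was far lower at 8.995, 9.28 and 7.38 TPM. The lowest marker was lipl-4, a lysosomal lipase, at 0.588 ± 0.593 TPM with no read in library 6. Among 42 genes of cathepsin-type and other digestive proteases 25 were expressed in all libraries, close to the share of all genes (59.5% beside 62.0%), but 3 of them exceeded 1000 TPM. The median of the list was 3.12 TPM, so its level rested on a minority of members.

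Some cuticle genes of the skin were high, with the cuticlin gene cut-2 at 2151, 1904 and 1679 TPM above every cuticle collagen. The median was 4.11 TPM over the 43 cuticlin and apical matrix genes and 6.34 TPM over the 177 cuticle collagens. That of all protein-coding genes was 5.2 TPM. Of 177 cuticle collagen genes 110 (62.1%) reached 1 TPM in each library, the same share as all genes, yet they held 2.22% ± 0.231 of TPM because 43 of them were at 100 TPM or more. The highest collagen was col-166 (WBGene00000739) at 1571, 1372 and 1348 TPM, followed by dpy-13, which sets body shape, at 1412, 1208 and 1225. The 6 collagens of the annular furrows were alike, from dpy-10 at 138 ± 21.8 to dpy-3 at 203 ± 30.2 TPM, although 48.96% of the exon bases of dpy-10 overlap another gene. Enzymes that fold and crosslink collagen were also high, with pdi-2 at 1845, 1356 and 1503 TPM. The prolyl hydroxylase phy-2 varied more, at 265, 97.9 and 133 TPM. Among 21 moulting genes, all expressed, mlt-8 was highest at 244, 201 and 222 TPM, and the moulting regulator nhr-23 had a mean of 23.9 TPM. Hedgehog-related genes act mainly in skin and cuticle in C. elegans. Of 59 such genes 34 were expressed (57.6%), close to the share of all genes (62.0%), with grl-16 highest at 407, 329 and 305 TPM. The patched-related genes, relatives of the hedgehog receptors of other animals, were expressed nearly throughout, with 25 of 26 members (96.2%) and ptc-3 highest at 63.1 ± 21.6 TPM.

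Antimicrobial genes of the gut and skin were among the higher peptide genes. The saposin-like spp-14 had 1206, 1703 and 1584 TPM and the epidermal peptide gene nlp-33 had 917, 749 and 1039. Over the list of 101 genes 66 were expressed (65.3%), close to the share of all genes (62.0%), and the median was 15.5 TPM.

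Neuronal genes were detected widely and at moderate levels. All 21 general neuronal genes were above 1 TPM, led by the synaptic vesicle gene snb-1, a synaptobrevin, at 349, 310 and 303 TPM and by sbt-1, a chaperone for an enzyme that processes neuropeptides, at 336, 236 and 300. The lowest was rgef-1 at 7.33 ± 0.709 TPM. Peptide genes differed by class. Of 31 FMRFamide-like peptide genes 30 were expressed with a median of 53.0 TPM, flp-14 and flp-1 being highest at 204 ± 20.0 and 189 ± 33.8 TPM with overlapping ranges. The 39 insulin-like peptide genes had a lower median of 3.10 TPM, with ins-27 highest at 112 ± 7.52 TPM. The share expressed, with 23 genes (59.0%), was close to that of all genes (62.0%). The 19 genes of transmitter synthesis and transport had a median of 12.7 TPM. The GABA-making enzyme unc-25 led them at 77.1, 49.3 and 48.1 TPM, and tbh-1, which makes octopamine, was lowest at 1.39 ± 0.5. In the touch receptor neurons the tubulins mec-12 and mec-7 had 99.6 ± 26.4 and 80.5 ± 21.8 TPM, while the channel subunit mec-4 had 4.51 ± 1.00. All 28 cilium genes found were above 1 TPM, but only the kinesin klp-11 and the regulator daf-19 passed 10 TPM (32.2 ± 1.28 and 17.6 ± 4.31). The value of klp-11 cannot be assigned without strand, since 97.1% of its exon bases overlap another gene.

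Receptors of the chemosensory neurons were the opposite case. Of 1310 chemoreceptor genes 37 (2.82%, beside 62.0% of all genes) reached 1 TPM in each library and 365 had no read. The median was 0.0826 TPM. Many of these genes are known from single neuron pairs. The 2 highest, srr-4 at 48.3, 78.2 and 71.6 TPM and srw-85 at 69.1, 65.8 and 60.8 TPM, were far above the next, srv-1, at 19.7 ± 2.66, and their ranges overlapped. The receptors and transduction genes for ascarosides were low, with 6 of 15 expressed (40%, beside 62.0% of all genes) and none at 10 TPM. Of all 19617 protein-coding genes 7929 had a mean of 10 TPM or more. The G protein genes gpa-2 and gpa-3 had 6.49 ± 1.51 and 6.31 ± 1.56 TPM, the receptor gene daf-38 had 4.75 ± 1.3, and srbc-64 had no read, which allows up to 0.0953 TPM as a mean over the 3 libraries at a floor of 3 reads in all (counting error only).

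**Figure D3:**
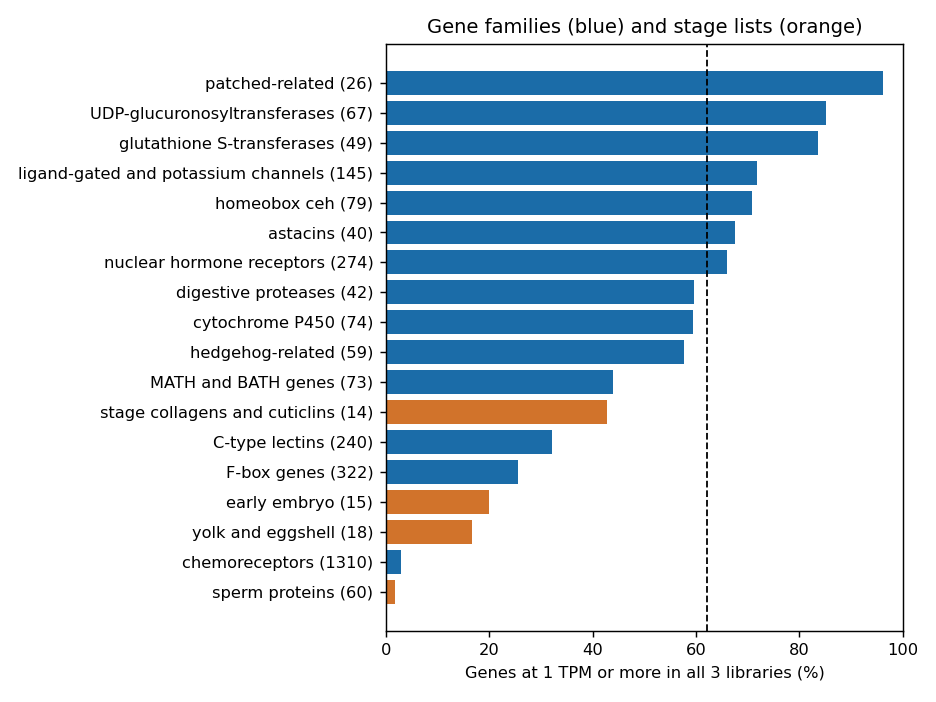
Share of genes at 1 TPM or more in all 3 libraries (horizontal axis, percent, from 0) for 14 gene families in blue and 4 stage lists in orange, with the number of genes found in brackets. The dashed line is the share of all protein-coding genes, 62.0%, and chemoreceptors (2.82%) and sperm proteins (1.67%) are lowest.

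Large families of other kinds spread around the background of 62.0%. Nuclear hormone receptors, ligand-regulated transcription factors that are numerous in worms, were expressed in 181 of 274 cases (66.1%), with nhr-88 highest at 67.6 ± 13.7 TPM and nhr-49, a regulator of fat metabolism, at 58.9 ± 8.62. Enzymes of detoxification ranged from 57 of 67 UDP-glucuronosyltransferases (85.1%) and 41 of 49 glutathione S-transferases (83.7%) to 44 of 74 cytochromes P450 (59.5%). The highest of these enzymes was gst-7 at 379, 496 and 429 TPM. C-type lectins and F-box genes were mostly below 1 TPM, with expression of 77 of 240 (32.1%) and 82 of 322 (25.5%). A few lectins broke the pattern, above all clec-63 at 1119, 1202 and 1096 TPM. Of 79 homeobox genes 56 (70.9%) were expressed, and all 6 Hox genes were, from nob-1 at 5.44 ± 1.78 to ceh-13 at 27.1 ± 1.61 TPM.

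The stage given by the labels, late L1, was set against genes of known timing. Genes of sperm were at the floor, with 1 of 60 (1.67%, beside 62.0% of all genes) at 1 TPM in each library and 39 with no read. The near-identical msp copies would lose shared reads, but spe-9, a single-copy sperm gene, also had 0.864 ± 0.223 TPM. Yolk and eggshell genes had a median of 0.622 TPM, and the yolk protein gene vit-2 had 12 reads in all. Genes of the early embryo list were low as well, with 3 of 15 expressed (20%, beside 62.0% of all genes) and no read for pes-10 and tbx-37. Higher were skn-1, which also acts in the larval gut, at 64.3 ± 11.3 TPM and the nuclear hormone receptor gene nhr-57 at 28.8, 12.9 and 16.6. Whether nhr-57 serves another role in these larvae was not tested. Among collagens with known timing, col-17 and col-10 had 1044 ± 109 and 763 ± 125 TPM, while the adult collagen gene col-19 had 1 read. Of the 11 heterochronic genes listed, which time larval divisions, 10 were found and all 10 were expressed. In C. elegans lin-14 and lin-28 act early and lin-29 acts at the last moult. The levels were 38.6, 23.4 and 23.6 TPM for lin-14 (WBGene00003003), 70.8, 63.96 and 61 for lin-28 and 5.42, 2.63 and 4.83 for lin-29. The period-related gene lin-42, which cycles with the moults, was the highest of the list at 174, 123 and 136 TPM. These levels did not go against the labelled stage. No other stage was measured here, so they cannot tell late L1 from neighbouring larval stages. The larvae had food throughout, so they are described here as fed larvae without ascarosides and not as resting ones.

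Division and germ line genes gave a low but measurable signal. Of 34 cell cycle and replication genes 32 were expressed (94.1%, beside 62.0% of all genes), with a median of 17.6 TPM. The sliding clamp gene pcn-1 was highest at 73.1 ± 4.37. Of 23 germ cell genes 17 were expressed (73.9%). They were led by cgh-1, an RNA helicase of germ granules that is also used elsewhere, at 35.9 ± 4.55 TPM and glh-1, a germ granule helicase, at 24.4 ± 1.75. The Nanos relative nos-2 was lowest at 0.276 ± 0.146. Of the somatic gonad list, ehn-3 and hnd-1, known from the gonad precursors, had 3 and 2 reads in all, whereas ceh-18 had 27.7 ± 3.97 TPM. RNA of whole worms does not place the ceh-18 reads in the gonad. Of 81 histone genes 37 reached 1 TPM in each library (45.7%, beside 62.0% of all genes), and 33 had no read. Replacement-type histones such as his-72 were high at 495 ± 53.1 TPM. Most other histone genes exist as near-identical copies and make messages without a poly(A) tail, and the part of this in the zeros was not tested. Genes of sex determination and dosage compensation had a median of 18.8 TPM, and xol-1, the early male switch, was lowest at 0.141 ± 0.125.

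Position in the genome gave a further description that the choice of libraries did not use. Among genes with a mean of 1 TPM or more the median was 18.6 TPM on chromosome III, 17.9 on I, 15.99 on IV, 15.5 on II, 12.5 on X and 11.4 on V. The X median was 0.838, 0.748 and 0.812 times the autosomal one in libraries 4, 5 and 6 (mean 0.799 ± 0.0465), and chromosome V stood at 0.681 ± 0.00658 times I to IV. This order depended on the filter. A smaller share of genes was expressed on V (49.2%) than on X (69.6%), and with all genes included the X ratio was 1.34, on the other side of 1. The X carried 13.6% of protein-coding genes and 9.20% ± 0.749 of TPM, with 2 of the 80 ribosomal protein genes located there.

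Outside the protein-coding genes the levels were small. The highest entries were the pseudogene F07H5.5 at 1222, 1306 and 1363 TPM and the long non-coding RNA tts-1 at 1027, 952 and 1370. Reads on a pseudogene can belong to a related gene. The entries F58D5.13 and W06H8.5, lie wholly inside exons of other genes, and since the library kit named in the methods does not mark strand their values of 415 ± 69.5 and 355 ± 68.4 TPM cannot be assigned. Several high genes carry a sequence name only, among them Y82E9BR.3 at 5563 ± 251 TPM and F41F3.3 at 4496 ± 387, and no role is given for them here.

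The 3 cultures repeated closely for most genes. The median SD of log2(TPM + 1) was 0.218 over 12875 genes with a mean of at least 1 TPM, and 0.140 without library 4. It fell from 0.264 for genes of 1 to 10 TPM to 0.135 for those of 1000 TPM or more. The median CV was 16.8%, where counting alone would give 6.20%. The smallest spreads included coq-1, which makes part of the electron carrier ubiquinone, at 48.5, 48.6 and 48.9 TPM. At the other end stood hil-3, a linker histone gene, at 271, 90.03 and 163 TPM, the ATPase gene catp-3 at 134, 43.9 and 69.1 and rhy-1, a regulator of the low oxygen response, at 29.3, 9.50 and 12.5. Of the 15 most variable genes 11 were lowest in library 5, 3 in library 6 (hsp-70, B0336.13 and F17C11.6) and 1 in library 4 (C37A5.5), and 12 were highest in library 4. Over all 7929 genes with a mean of 10 TPM or more the order of libraries was the same. There 3505 were lowest in library 5, 2898 in library 6 and 1526 in library 4, and 4846 were highest in library 4.

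Part of the spread followed 1 library and the length of the gene. Library 4 was the farthest from the other 2 in 51.3% of 7929 genes with a mean of 10 TPM or more. Its deviation, log2(TPM + 1) minus the mean of the other 2 libraries, rose with exon length (Spearman's rho 0.623 across genes, as a description), from a median of -0.22 in genes of up to 400 bases to 0.47 in genes over 5000 bases. Library 5 went the other way, from 0.13 to -0.34, and library 6 from 0.15 to -0.15. Once the length trend was subtracted the SD of the deviation over genes went from 0.306 to 0.245 in library 4, from 0.286 to 0.264 in library 5 and from 0.215 to 0.1999 in library 6, so most of it remained. The long gene unc-54 and the short gene rps-25 deviated in opposite directions in the same libraries, and the part of length in this was not tested. The libraries were made from fragmented mRNA and size-selected cDNA, and the part of these steps in the length trend was not tested.

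**Figure D4:**
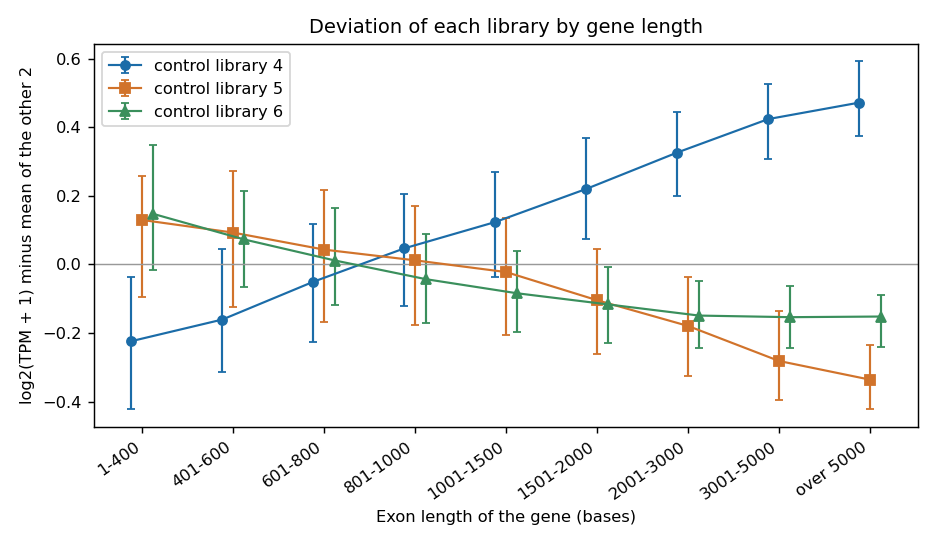
Median deviation of each control library, log2(TPM + 1) minus the mean of the other 2 (vertical axis), in 9 classes of exon length (horizontal axis, bases), with bars from the lower to the upper quartile of genes. Library 4 climbs from -0.22 in the shortest class to 0.47 in the longest. Libraries 5 and 6 descend, as they together must because the deviations of a gene cancel over the libraries.

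Gene lists were therefore compared between libraries with and without the length trend, by subtracting the median deviation of genes of like length. That median was taken from genes with a mean of 10 TPM or more. This step was chosen after the data were seen. Of all 7929 genes with a mean of 10 TPM or more, 4846 were highest in library 4, 1935 in library 5 and 1148 in library 6. The counts below are of list members with a mean of 1 TPM or more. The mitochondrially encoded genes were higher in library 6 by 0.57 before and 0.58 after. Intestinal genes were higher in library 5 by 0.22 and 0.30, with 12 of 20 highest there, and glutathione S-transferases by 0.37 and 0.33, with 31 of 45. The ascaroside synthesis genes were higher in library 5 by 0.35 and 0.47, with 7 of 8 highest there, such as acox-1.2 at 69.3, 116.4 and 61.2 TPM. Several lists of long genes were higher in library 4 by less after subtraction. Body wall muscle went from 0.44 to 0.16 and general neuronal genes from 0.36 to 0.09. Glycolysis and gluconeogenesis kept 0.26 of 0.49, and the enzymes of collagen assembly kept 0.26 of 0.52. Cilium genes turned from 0.25 to -0.05 and touch neuron genes from 0.21 to -0.07. Both lists are low, with medians of 3.49 and 5.59 TPM. At such levels the 1 added before the log shrinks a deviation, so a median from higher genes can subtract too much. These turns of sign are therefore not interpreted. FMRFamide-like peptide genes, which are short, went up in library 4 from 0.17 to 0.25, and nlp peptide genes from 0.07 to 0.19. Over all 65 lists the sign changed on subtraction for 15 in library 4, 8 in library 5 and 21 in library 6, with the same limit for lists of low level. No group of samples stands behind these differences, since each is 1 culture against 2.

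**Figure D5:**
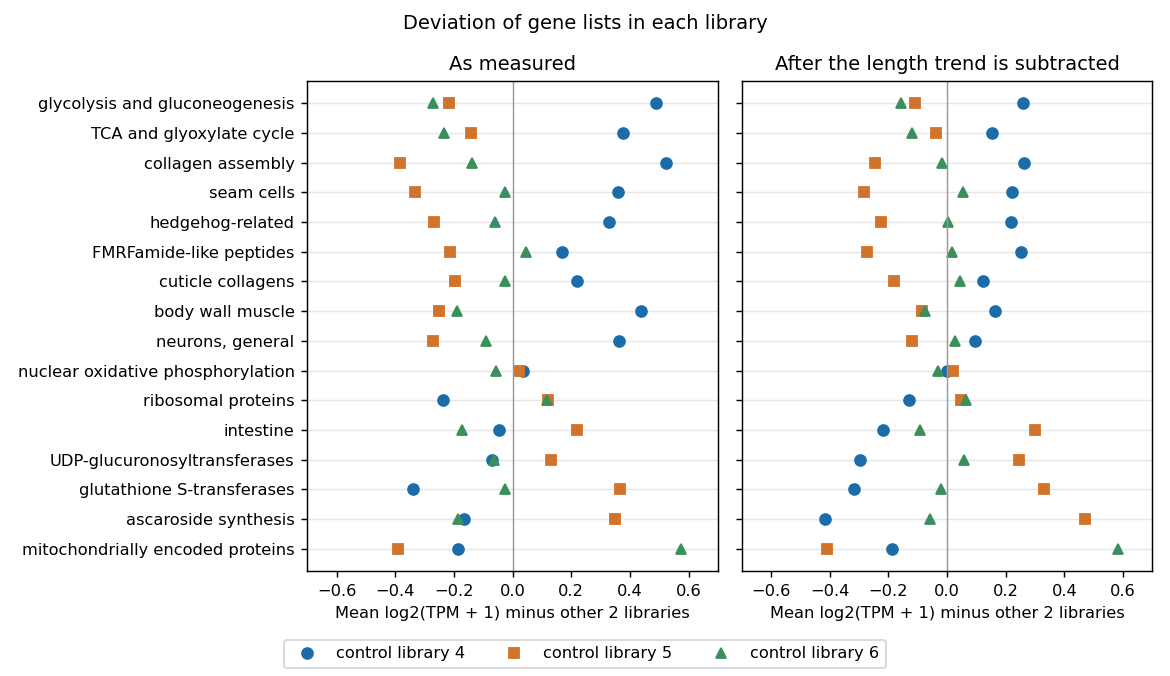
Mean deviation of 16 gene lists in each control library, on the log2(TPM + 1) scale (horizontal axes), as measured (left) and after subtraction (right). The value subtracted is the median of genes of like length with a mean of 10 TPM or more. The mitochondrially encoded genes stay at 0.57 and 0.58 in library 6, while body wall muscle in library 4 goes from 0.44 to 0.16.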

How the data were processed

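Poly(A)-selected RNA was read as single 50-base reads. The authors aligned reads with tophat2 to Ensembl WBcel215 (the labels list WBcel235), used HTSeq-count for counts per gene. The deposited unit is a signal, these counts after scaling with the size factors of DESeq. Versions and the strand setting are not given in the sources used here. All deposited values (100%) were whole multiples of 1 step per column within 0.01 reads, and reads were recovered from that step.

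Reads were divided by joined exon length (Ensembl release 115, WBcel235, for names, gene types, chromosomes, lengths and exon overlaps, with no coordinates printed) and scaled to transcripts per 1000000 (TPM). Of 46726 gene rows, 362 without annotation (at most 0.265% of reads) and 23 rRNA rows were left out, as were 5 summary rows. Column names give the group of a library and not its replicate number. Named genes are the 30 highest, the 3 highest and the lowest of each list, all members of lists of up to 12 genes, the 15 most and 10 least variable genes from 10 TPM, the 5 highest non-coding genes and the 10 highest with a sequence name. Any other gene given with a value was picked with its values in view. A gene counts as expressed at 1 TPM or more in all 3 libraries. Members and lists were chosen with earlier results of these data known. Alternatives for length, rows, filters, pseudocount and left-out libraries are given in the closing section. As a check on the calculation only, counts were simulated with a known spread and a known length trend. Software was numpy 2.4.6, scipy 1.17.1 and pandas 2.3.3 under Python 3.11.15, with figures from matplotlib 3.10.9.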

Additional observations from a re-analysis of the deposited data

Results flagged for a closer look

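Reads on rRNA genes lie outside the levels reported. They were present although the libraries were poly(A) selected, at 10.2% of the reads on genes in control library 4, 11.5% in library 5 and 17.3% in library 6. There is no control for this share. The library with the largest share also had the highest levels of 11 of 12 mitochondrially encoded genes, beside 1148 of all 7929 genes with a mean of 10 TPM or more. A link between the rRNA share and the mitochondrial levels was not tested.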

How the results depend on the processing

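The number of expressed genes (12170) stayed within 1.5 times under each alternative, from 9343 at 5 TPM to 13211 at 5 normalized counts. Without division by length the 100 highest genes held 27.3%, ribosomal protein genes 16.3% and the X ratio was 0.870, and 14 of the 30 highest genes were still among the first 30. The X ratio was 1.34 with no filter and 0.885 from a mean of 5 TPM. The median SD of log2 values was 0.159 with a pseudocount of 5. Leaving out 1 library gave 12281 to 12445 genes, 38.9% to 41.6% of TPM in the 100 highest, 29.9% to 32.4% in ribosomal protein genes, an X ratio of 0.777 to 0.822 and a median SD of 0.140 (without library 4) to 0.208. List medians moved beyond their SD for 53 of 65 lists without length, 5 with rRNA rows kept and 1 with the longest transcript. When a library was left out the count was 0 of 195, which could hardly have been otherwise. A mean that loses a library shifts by less than the SD of the same libraries, so this count says nothing about stability. Length from uniquely mappable positions was not run, as no genome was used here. No paired analysis was possible because a single group gives no test, and its columns carry no replicate numbers. Depth limits values under 1 TPM, near-identical copies lose shared reads, and overlapping genes cannot be separated without strand.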
